A study of Mus musculus with 34 samples.

Results

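IRF4 binding was compared between regulatory T (Treg) and conventional CD4 T (Tconv) cells of the mouse by chromatin immunoprecipitation and sequencing. All 9134 peaks of the IRF4 experiment were kept, and no peak was chosen for its value. The comparison rests on 8 of the 34 samples of the series, 4 Treg and 4 Tconv libraries. The mice were C57BL6/J and carried Foxp3-IRES-hCD2, an allele that puts human CD2 on the surface of cells that express Foxp3. Cells came from lymph nodes and spleen by sorting, with CD4+hCD2+ cells taken as Treg and CD4+hCD2- cells as Tconv, so the reporter allele is shared by all libraries. Ages are not given, no IRF4 antibody is named, and nothing says that the libraries came from separate mice. The p-values then measure the spread between libraries, which may be technical.

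IRF4 is an interferon regulatory factor that T cell receptor signals induce. Alone it binds DNA weakly, and it is known to act with partners on composite sites: with BATF and a JUN protein at AP-1 and IRF composite elements, and with ETS factors at ETS and IRF composite elements. It is needed for effector Treg cells and for helper T cells of several kinds. Foxp3 is the lineage factor of Treg cells, and Tconv cells lack it apart from rare or transient expression.

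Sequence was at hand only around gene starts, as RefSeq windows on GRCm38.p6 that run from 250 bases before to 50 bases after a start. The windows below are those of the gene-start peaks with the largest changes that share at least 150 bases with their peak and hold a searched motif, read 5′ to 3′ on the gene's strand. Capitals mark an AP-1 site (TGANTCA) in the first window and an ETS core (CCGGAAG) in the others, on either strand. The Tnfrsf8 window lies at chr4:145315115-145315414 on the minus strand, and its IRF4 peak was higher in Treg cells. The Cfap298 window, at chr16:90934800-90935099 on the minus strand, and the Dhx16 window, at chr17:35879528-35879827 on the plus strand, lie in peaks that were lower in Treg cells.
Tnfrsf8: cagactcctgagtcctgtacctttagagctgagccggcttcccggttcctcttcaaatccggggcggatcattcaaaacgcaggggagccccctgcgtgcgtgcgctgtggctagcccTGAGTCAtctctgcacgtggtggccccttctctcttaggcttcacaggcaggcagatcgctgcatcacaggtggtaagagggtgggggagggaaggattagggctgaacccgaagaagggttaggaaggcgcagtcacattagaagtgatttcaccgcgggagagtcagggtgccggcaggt
Cfap298: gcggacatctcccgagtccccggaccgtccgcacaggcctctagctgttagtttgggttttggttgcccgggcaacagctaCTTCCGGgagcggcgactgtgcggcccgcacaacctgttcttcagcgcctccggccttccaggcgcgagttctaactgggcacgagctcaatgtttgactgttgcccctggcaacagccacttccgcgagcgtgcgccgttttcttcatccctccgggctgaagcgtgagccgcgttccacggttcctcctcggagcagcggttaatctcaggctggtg
Dhx16: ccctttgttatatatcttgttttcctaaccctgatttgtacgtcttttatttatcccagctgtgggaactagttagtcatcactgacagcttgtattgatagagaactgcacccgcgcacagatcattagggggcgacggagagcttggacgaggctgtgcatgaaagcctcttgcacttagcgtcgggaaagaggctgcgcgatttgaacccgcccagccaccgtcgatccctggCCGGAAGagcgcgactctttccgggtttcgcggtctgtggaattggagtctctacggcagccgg

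Values are normalised reads per peak on the mm10 genome, and each peak is named after the protein-coding gene closest to it, up to 100000 bp away, whether or not it acts on that gene. A peak was called when limma's adjusted p, over all 9134 peaks, was under 0.05. IRF4 was higher in Treg cells at 1442 peaks (15.8% of those tested) and lower at 766 (8.39%). The median log2 fold change was 1.64 among the higher and -1.23 among the lower peaks, and -0.05 over all. The higher peaks changed more: 445 of them differed 4-fold or more, against 73 of the lower ones. The typical higher peak was weak in Tconv cells, with a median of 34.0 in Treg and 10.8 in Tconv libraries. The lower peaks had a median of 13.2 in Treg and 32.2 in Tconv libraries. All 4 Treg libraries lay above all 4 Tconv libraries at 1373 peaks (15% of all) and below them at 753 (8.24%). Every Tconv library held 3 reads or fewer at 23 of the higher peaks, and every Treg library did so at 6 of the lower ones.

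**Figure D1:**
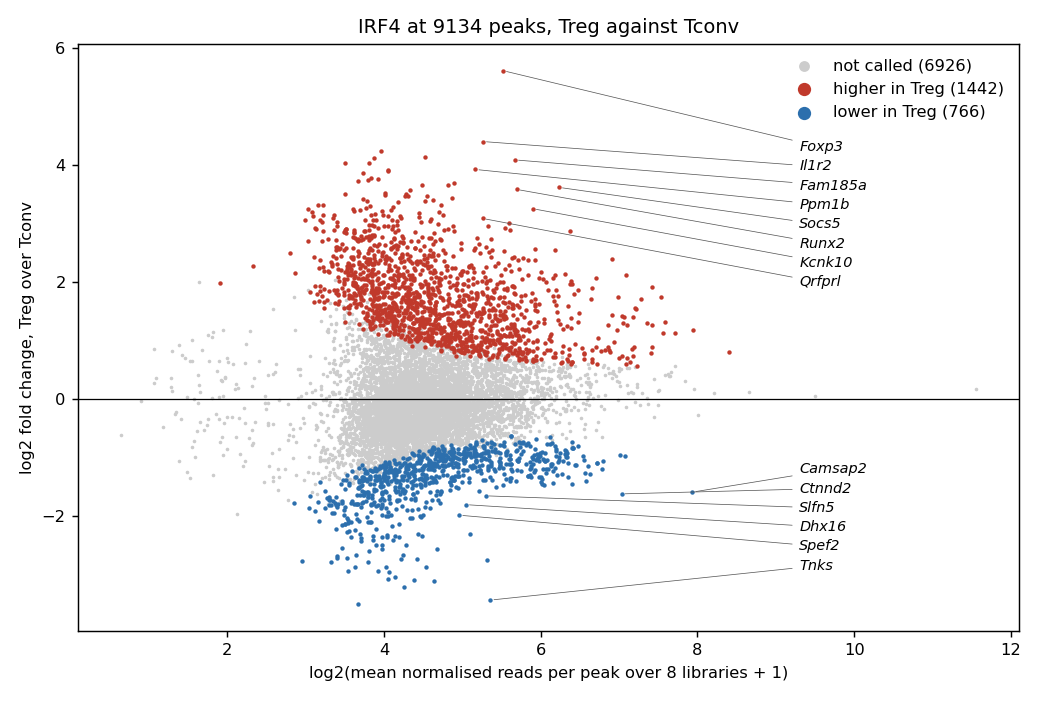
Each point is 1 of 9134 IRF4 peaks; the horizontal axis is the log2 mean of normalised reads over 8 libraries plus 1, and the vertical axis the log2 fold change of Treg over Tconv cells. Red peaks (1442) were called higher and blue peaks (766) lower in Treg cells, and the named peaks are the largest changes among strong ones; the Foxp3 peak stands highest, at 5.61.

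Reads within peaks ranged from 162580 to 295816 in Treg and from 203370 to 336969 in Tconv libraries, and total sequencing depth is unknown. Across peaks, the log2 values of 2 libraries correlated with r from 0.73 to 0.81 within Treg, from 0.63 to 0.76 within Tconv and from 0.32 to 0.47 between the groups. Tconv libraries 1 and 3 stood at opposite ends of the second principal component (12.9% of the variance), and the first (48.9%) separated the groups. The 14 housekeeping peaks included 0 higher and 1 lower peak, that near Rpl13a (16.2 ± 2.95 in Treg and 30.8 ± 8.94 in Tconv libraries; SD, n = 4 each; limma adjusted p = 0.0474, from 0.029 to 0.18 over the alternatives). Leaving out Treg library 1, 3 or 4 or Tconv library 2, 3 or 4 ended that call. These are sorted cell populations, so more cells with IRF4 at a site and more IRF4 per cell cannot be told apart.

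Binding that was higher in Treg cells lay away from gene starts. Within 1000 bp of a start, 59 of 2874 peaks (2.05%) were higher and 250 (8.70%) lower. In gene bodies further from a start, 709 of 3019 peaks (23.5%) were higher and 266 (8.81%) lower, and between genes 662 of 2669 (24.8%) were higher and 211 (7.91%) lower. The lower peaks thus made up similar shares of all 3 classes, while the higher ones did not. Within 250 bp of a start only 18 of 2354 peaks (0.765%) were higher and 218 (9.26%) lower. A further 572 peaks lay within 1000 bp of an end of a gene with no start in the table used, and 12 of them were higher.

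The same held for the reads themselves. Peaks within 1000 bp of a start took 27.2%, 24.3%, 22.7% and 22.7% of the normalised reads in Treg libraries 1 to 4, against 33.5%, 31.8%, 30.9% and 30.4% in Tconv libraries 1 to 4. The groups did not overlap. Among peaks in the highest quartile of mean value, 155 of 507 at gene starts (30.6%) were lower in Treg cells, against 84 of 1675 elsewhere (5.01%). The other quartiles went the other way. In quartiles 1, 2 and 3, from the weakest up, the lower share at gene starts was 3.75%, 2.88% and 5.72%. Elsewhere it was 11.1%, 9.60% and 8.58%. The share of reads outside peaks is not known for these libraries, so its part in the gene-start difference was not tested. Without Treg library 4 the lower share at gene starts was 5.46% and without Tconv library 2 it was 5.78%, while the higher share at gene starts stayed between 1.46% and 2.16% over all 8 fits without a library.

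**Figure D2:**
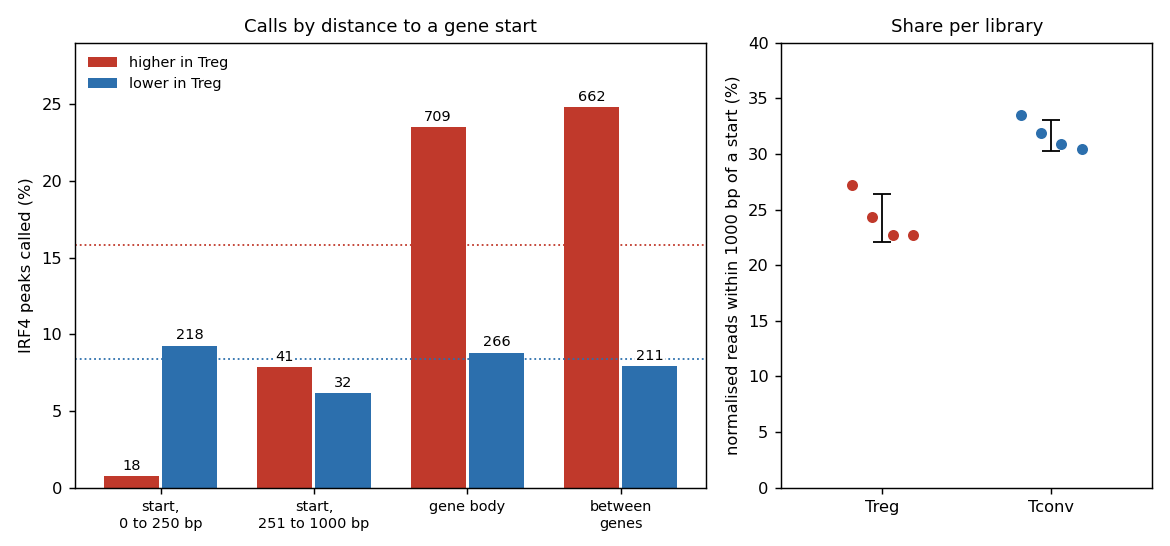
Left, the percentage of IRF4 peaks called higher (red) and lower (blue) in Treg cells by position, with the number of called peaks above each bar and the shares of all peaks (15.8% and 8.39%) as dotted lines. Right, the percentage of each library's normalised reads in peaks within 1000 bp of a gene start, with bars of 1 SD either side of the mean of 4 libraries; the 4 Treg libraries (22.7% to 27.2%) lie below the 4 Tconv libraries (30.4% to 33.5%).

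The windows printed above were picked to hold a motif, which most windows of their kind lack. Of 2897 windows with 150 bases or more in an IRF4 peak, 32.6% held CCGGAAG on either strand, against 8.91% of all 32544 windows. The share was 128 of 275 windows (46.5%) where IRF4 was lower in Treg cells, 31.3% where it was not called and 1 of 21 (4.76%) where it was higher. TGANTCA was present in 5 of the 21 windows of higher peaks, in 12 of 275 (4.36%) of lower peaks and in 7.79% of all windows. These letters are a description of the windows and do not show which factor was bound. Letters of an ETS and IRF composite element were in 3.07% of the 2897 windows and 2.73% of all windows. They were in 2.55% of windows of lower peaks and 0 of 21 of higher peaks. Letters of AP-1 and IRF composite elements, adjacent or 4 bp apart, were each in 2 of the 2897. Median GC content was 62% in the 2897 windows and 53% in all. It was 58% where IRF4 was lower, 62.7% where not called and 50.3% where higher. The part of GC content in the ETS core shares was not tested. Windows that overlap on DNA, such as those of genes read in opposite directions from 1 start, share their sequence.

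At gene starts the largest rise among strong peaks was 827 bp from the start of Rnf157, a ubiquitin ligase gene, with 55.3, 61.9, 99.4 and 52.0 normalised reads in Treg libraries and 6.46, 18.1, 23.5 and 22.9 in Tconv libraries (log2 fold change 1.96, SE 0.33, limma adjusted p = 0.000156). At the start of Tnfrsf8, which encodes the receptor CD30, the values were 68.2, 50.8, 33.1 and 58.8 in Treg and 17.0, 18.1, 9.02 and 12.6 in Tconv libraries (1.82, SE 0.31). A peak of Utrn, the utrophin gene, 982 bp from its start, averaged 66.8 ± 23.4 in Treg and 17.7 ± 7.87 in Tconv libraries. All 3 peaks were picked among called peaks whose groups did not overlap, so every Treg library lay above every Tconv library by that choice. The Tigit start, whose gene encodes an inhibitory receptor of Treg cells, rose less: 59.0, 73.0, 81.2 and 57.1 in Treg against 36.4, 29.2, 47.8 and 42.3 in Tconv libraries (0.79, SE 0.24, limma adjusted p = 0.0161). The Tigit call was lost without Treg library 3 or Tconv library 2 and without the trend of the spread, with adjusted p up to 0.0667.

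Falls at gene starts included Slfn5, a Schlafen family gene, with 20.3, 17.4, 16.03 and 17.0 in Treg and 67.9, 43.9, 72.2 and 51.4 in Tconv libraries (log2 fold change -1.65, SE 0.26, limma adjusted p = 8.61e-05). At the start of Cfap298 the values were 49.8, 49.2, 26.7 and 16.2 in Treg and 136, 100.2, 71.3 and 72.0 in Tconv libraries (-1.48, SE 0.30). At Dhx16, an RNA helicase gene, they were 30.4, 1.59, 22.4 and 16.2 in Treg and 39.6, 43.2, 47.8 and 54.9 in Tconv libraries (-1.81, SE 0.49), a call that was lost without the trend of the spread (adjusted p = 0.0549). The groups stood apart at all 3 by the same choice of peaks, and the Treg libraries ranged widely at Dhx16. Pou2af1, which encodes a coactivator of follicular helper T and B cells, was lower at its start as well (10.8 ± 3.60 in Treg and 39.6 ± 11.1 in Tconv libraries).

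At the genes listed as Treg identity genes the called changes were upward. Of 34 peaks at 13 of these genes, 19 (55.9%) were higher and 0 lower, beside 15.8% and 8.39% of all peaks. This list, like the others below, was chosen with earlier results of these data known, so its share is only a description. The 19 included 6 at Cd83 and 5 at Nrp1. The median log2 fold change of the 34 peaks was 1.03, beside -0.05 over all peaks. The summed value of the 34 peaks was 1989, 2035, 2055 and 2030 in the Treg libraries and 1090, 987, 803 and 929 in the Tconv libraries. Foxp3 had 1 peak, within the gene at chrX:7583922-7584322, 3639 bp from its start. It held 99.5, 80.9, 86.5 and 86.9 normalised reads in Treg libraries and 2.42, 0, 0 and 2.29 in Tconv libraries, which is 3, 0, 0 and 2 reads. Its fitted log2 fold change of 5.61 (SE 0.47, limma adjusted p = 3.58e-08) depends on the pseudocount at such low Tconv counts. The labels' split of the cells by Foxp3 and this peak go the same way, though the peak reads binding and not expression.

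Ikzf2, which encodes the Treg factor Helios, had 279, 309, 288 and 264 in Treg libraries and 87.2, 86.3, 93.8 and 72.0 in Tconv libraries. The spread within each group was small beside the difference (log2 fold change 1.74, SE 0.19, limma adjusted p = 1.09e-06). At Nrp1, the neuropilin gene that marks many thymic Treg cells, 5 of 6 peaks rose, and the strongest, 44279 bp away, held 257, 206, 191 and 200.3 in Treg against 145, 56.4, 46.9 and 73.1 in Tconv libraries. Ctla4, an inhibitory receptor gene, had 3 peaks. The peak in its body averaged 281 ± 13.4 in Treg and 135 ± 51.9 in Tconv libraries (1.13, SE 0.24), and a weaker one 21589 bp away 33.5 ± 13.2 and 3.02 ± 3.09 (3.47, SE 0.58). The peak at the Ctla4 start differed by less than the test could call (132 ± 10.2 in Treg and 107 ± 32.5 in Tconv libraries, limma adjusted p = 0.287).

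Not all loci of this kind moved. Il2ra, the gene of the high-affinity interleukin-2 receptor chain, had 4 peaks, of which 1 rose (37.1 ± 10.9 in Treg and 16.7 ± 1.89 in Tconv libraries, log2 fold change 1.06). The strongest Il2ra peak held 38.7, 33.3, 55.6 and 66.5 in Treg and 31.5, 57.1, 60.5 and 33.1 in Tconv libraries, with the groups overlapping (0.10, SE 0.28). The Ikzf4 peak, in the gene of the Helios relative Eos, averaged 32.2 ± 7.45 in Treg and 31.1 ± 13.1 in Tconv libraries (0.12, SE 0.31). At Cd83, a surface protein of activated cells, 6 of 7 peaks rose, the strongest by 2.06 (105, 99.9, 108 and 86.9 in Treg against 25.04, 20.9, 17.1 and 32.0 in Tconv libraries). Of these 6 calls 5 held without any 1 library, and each Treg library and Tconv libraries 2 and 3 ended the other when left out.

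**Figure D3:**
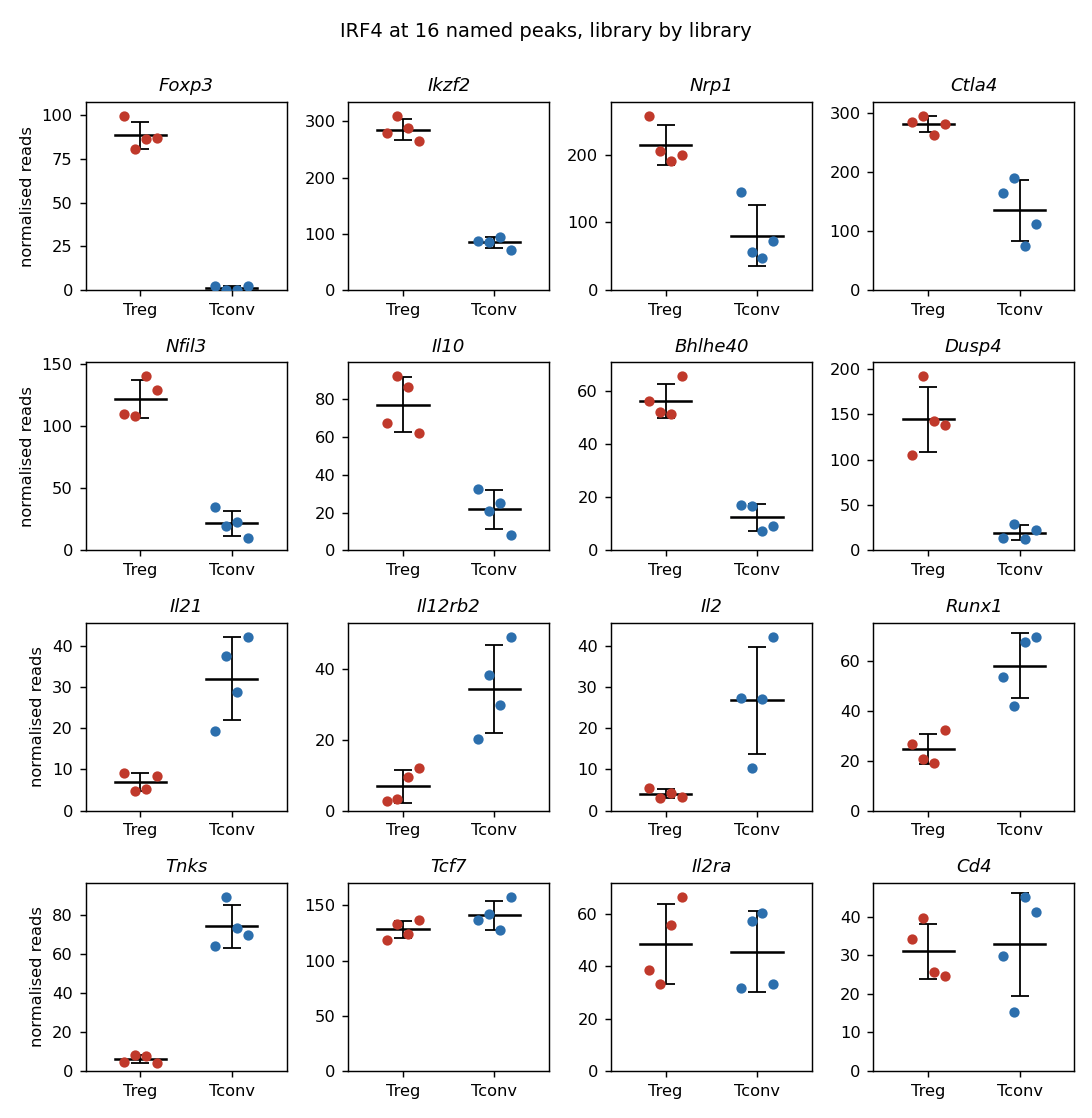
Normalised reads at 16 named peaks, 1 point per library, with Treg libraries on the left and Tconv libraries on the right of each panel; lines and bars are the mean and SD of 4 libraries. The groups are apart from Foxp3 to Tnks, and overlap at Tcf7, Il2ra and Cd4. Panels of Nrp1, Ctla4, Tcf7, Il2ra and Cd4 show the strongest peak of the gene. The other panels show its named peak with the smallest p, so the separation there follows in part from that choice.

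Effector Treg genes had higher peaks as well. Of 58 peaks at 19 of these genes, 28 (48.3%, against 15.8% of all peaks) were higher, at 15 genes, and 0 lower, against 8.39%, with a median log2 fold change of 0.86. All 3 peaks of Il10, an anti-inflammatory cytokine gene, rose. The one in the gene averaged 77.0 ± 14.5 in Treg and 21.6 ± 10.2 in Tconv libraries, with no overlap (1.92, SE 0.32, limma adjusted p = 0.000107). The strongest, 8931 bp away, was uneven within groups (319, 192, 167 and 165 in Treg against 164, 64.0, 27.97 and 75.4 in Tconv libraries), library 1 being highest in both, and DESeq2 did not call it (adjusted p = 0.055).

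Nfil3, a leucine zipper factor gene, had 3 of 4 peaks higher, led by 110, 108, 140 and 129 in Treg against 34.7, 19.5, 22.6 and 10.3 in Tconv libraries (log2 fold change 2.54, SE 0.28). The groups at that peak were far apart. Single peaks rose at Prdm1, which encodes the effector factor Blimp-1 (63.8 ± 4.81 in Treg and 25.7 ± 10.7 in Tconv libraries, 1 of 4 peaks), and at Maf, a factor that drives Il10 in T cells (80.8 ± 13.0 and 32.1 ± 5.55, 1 of 2 peaks). Tigit had 4 of 6 peaks higher and Rora, a nuclear receptor gene of helper and tissue Treg cells, 5 of 10. The strongest Rora peak missed the threshold (73.0 ± 17.99 in Treg and 46.6 ± 7.34 in Tconv libraries, limma adjusted p = 0.0561) and passed it without Treg library 1 or Tconv library 3.

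Icos, a costimulatory receptor gene, showed how far peaks of 1 locus can differ. Its strongest peak averaged 32.9 ± 3.84 in Treg and 36.5 ± 11.6 in Tconv libraries, with a log2 fold change of -0.09 (SE 0.28). A peak 26385 bp away rose by 1.77 (46.1, 44.4, 58.8 and 46.9 in Treg against 12.1, 18.8, 9.93 and 14.9 in Tconv libraries). The other 4 Icos peaks were not called. Ccr8, a chemokine receptor gene, likewise had its strongest peak uncalled (31.5 ± 10.1 in Treg and 42.5 ± 15.8 in Tconv libraries) and a peak 798 bp from its start higher (35.1 ± 11.5 and 13.1 ± 7.66, log2 fold change 1.48, SE 0.40), where the libraries of the groups still overlapped.

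Apart from Foxp3, the largest rises at strong peaks, taken as the highest quartile of mean value, included several near genes outside the lists above. A peak 28408 bp from Il1r2, the decoy receptor gene of interleukin-1, held 50.7, 74.6, 68.4 and 94.6 in Treg and 1.62, 1.39, 5.41 and 2.29 in Tconv libraries (log2 fold change 4.40, SE 0.40, limma adjusted p = 1.17e-07). One in Socs5, a cytokine signalling suppressor gene, held 116, 152, 130.4 and 145 in Treg and 25.04, 6.27, 4.51 and 13.7 in Tconv libraries (3.61, SE 0.34). One near Ppm1b, a phosphatase gene, averaged 66.0 ± 11.6 in Treg and 3.83 ± 2.64 in Tconv libraries (3.92, SE 0.39). All of these were picked among called peaks whose groups did not overlap, so their lack of overlap is not a result. A peak in Runx2, a runt-domain factor gene, rose by 3.58 (SE 0.64) but ranged in Tconv libraries from 0 to 37.2, and DESeq2 did not call it (adjusted p = 0.0595).

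At 6 survival genes of the BCL-2 family, 8 of 18 peaks (44.4%, against 15.8% of all peaks) were higher and 0 lower, with a median log2 fold change of 0.93. These were 4 peaks at Bcl2l1, which encodes the anti-apoptotic protein BCL-XL, 2 at Pmaip1, and 1 each at Bcl2 and Bcl2l11. The genes Bcl2 and Bcl2l1 oppose cell death, while Bcl2l11 (BIM) and Pmaip1 (NOXA) promote it. The Bcl2 peak held 48.9, 96.8, 43.8 and 51.1 in Treg and 21.0, 12.5, 12.6 and 27.4 in Tconv libraries (1.66, SE 0.31), and the strongest Pmaip1 peak averaged 50.0 ± 14.2 in Treg and 6.24 ± 7.41 in Tconv libraries (3.43, SE 0.56).

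Of 33 peaks at interleukin-2 receptor and JAK-STAT genes, 9 (27.3%) were higher and 1 (3.03%) lower, beside 15.8% and 8.39% of all peaks. The smallest p belonged to a peak within Jak2, a kinase gene, with 101, 116, 127 and 109 in Treg and 17.8, 34.1, 34.3 and 22.9 in Tconv libraries (2.06, SE 0.24, limma adjusted p = 1.75e-06). Cish, a STAT5 target gene, had a peak 317 bp away at 22.7 ± 5.92 in Treg and 3.96 ± 1.71 in Tconv libraries. Immediate-early and MAP kinase feedback genes had 7 of 36 peaks higher (19.4%, near the 15.8% of all peaks) and 0 lower. A peak 51025 bp from Dusp4, a phosphatase gene that limits MAP kinases, held 105, 192, 143 and 138 in Treg and 13.7, 29.2, 12.6 and 22.9 in Tconv libraries (2.87, SE 0.27). NF-kappaB pathway genes had 5 of 28 higher (17.9%, also near that share) and 0 lower, with 3 of the higher ones at Nfkbiz, an atypical IkappaB gene.

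Of 2284 peaks in the highest quartile of mean value, 263 (11.5%) were lower and 509 (22.3%) higher, beside 8.39% and 15.8% of all peaks. The largest fall was in Tnks, a poly-ADP-ribosylating enzyme gene, with 4.61, 7.93, 7.48 and 4.26 in Treg and 63.8, 89.1, 73.1 and 69.7 in Tconv libraries (log2 fold change -3.44, SE 0.32, limma adjusted p = 1.17e-07). It lies 189 kb from the Dusp4 peak that rose, on the same chromosome. A peak 18603 bp from Camsap2, a microtubule-end binding protein gene, stood among the strongest of all, with 102, 139.6, 102 and 143 in Treg and 352, 329, 358 and 422 in Tconv libraries (-1.59, SE 0.21). It overlapped neither a BATF nor a Foxp3 peak. A pair of further large falls had no gene within 100000 bp, at chr4:10769963-10770363 (9.76 ± 3.81 in Treg and 68.1 ± 12.8 in Tconv libraries) and chr17:52468379-52468779 (10.1 ± 1.24 and 56.1 ± 19.2).

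Cytokine and helper lineage loci were mixed. At cytokine genes 6 of 19 peaks were higher (31.6%, against 15.8% of all peaks) and 3 lower (15.8%, against 8.39%); the higher ones were at Il10, Ifng and Tgfb1, and the lower ones at Il2 and Il21. The Il2 peak, 26359 bp from this T cell growth factor gene, held 5.53, 3.17, 4.27 and 3.41 in Treg and 27.5, 10.4, 27.1 and 42.3 in Tconv libraries (log2 fold change -2.32, SE 0.47, limma adjusted p = 0.000839). The Il21 peak with the smallest p, 51.7 kb from it, held 9.22, 4.76, 5.34 and 8.52 in Treg and 19.4, 37.6, 28.9 and 42.3 in Tconv libraries (-2.04, SE 0.39). Both genes serve helper functions, and both peaks were low in every Treg library.

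Of 42 peaks at Th1, Th2 and Th17 factors and receptors, 10 (23.8%) were higher and 4 (9.52%) lower, beside 15.8% and 8.39% of all peaks. Of these 10 higher peaks 5 were at Rora, which is also counted among the effector Treg genes. The fall in Il12rb2, a receptor gene of Th1 cells, was 2.77, 3.17, 9.62 and 11.9 in Treg against 20.2, 38.3, 29.8 and 49.1 in Tconv libraries (-2.30, SE 0.45). Neither Gata3 peak was called (14.7 ± 2.84 in Treg and 25.1 ± 7.30 in Tconv libraries at the stronger one), and Tbx21 had no peak. At Ifng 2 weaker peaks rose, while the strongest stood at 35.3 ± 9.97 in Treg and 54.2 ± 14.5 in Tconv libraries (limma adjusted p = 0.103), and was lower past the threshold without Tconv library 1 and under quantile normalisation. Follicular helper genes had 8 of 34 higher (23.5%) and 4 lower (11.8%), beside the same shares of all peaks. A peak in Tox, an HMG-box factor gene, averaged 53.2 ± 13.3 in Treg and 4.01 ± 3.61 in Tconv libraries (3.70, SE 0.46), and the peak near Bcl6, a repressor gene of follicular T cells, 21.3 ± 6.28 and 6.10 ± 2.81.

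At naive and central T cell genes 16 of 106 peaks were higher (15.1%, near the 15.8% of all peaks) and 15 lower (14.2%, against 8.39% of all peaks), with a median log2 fold change of -0.16. Foxp1, a forkhead factor gene that keeps T cells quiescent, held both. Over 506 kb it had 21 peaks, with 6 higher, 5 lower and 10 not called. Counted along the chromosome from the first of them, the higher peaks lay between 0 and 348 kb and the lower ones between 283 and 505 kb. The strongest higher one held 241, 259, 222 and 240 in Treg against 94.5, 107, 91.1 and 106 in Tconv libraries (1.26, SE 0.19). The last one, lower in Treg cells, held 10.1, 3.17, 15.0 and 17.9 in Treg against 40.4, 32.7, 19.9 and 29.7 in Tconv libraries (-1.50, SE 0.42). All 6 higher and 3 of the 5 lower Foxp1 calls held without any 1 library, and each of the 8 libraries, left out, ended at least 1 of the other 2 lower calls.

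Bach2, which encodes a repressor that restrains effector genes, also had 21 peaks, 7 higher and 2 lower. Its most strongly bound peak stood at 301, 358, 259 and 287 in Treg and 340.1, 331, 163 and 325 in Tconv libraries, with groups that overlap (0.11, SE 0.24). Most Bach2 changes were small, and 2 of the 7 higher calls and 1 of the 2 lower ones held without any 1 library. Each of the 8 libraries, left out, ended 1 or more of the other higher calls, and all but Treg library 1 and Tconv library 4 ended the other lower call. The higher peak with the smallest p, at 1.31 (SE 0.25), held 109, 141, 110.1 and 135 in Treg against 61.4, 66.8, 26.2 and 52.6 in Tconv libraries. Runx1, a runt-domain factor gene, had 13 peaks, 5 lower and 0 higher, and 2 of the 5 held without any 1 library, each of the 8 libraries ending 1 or more of the others.

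**Figure D4:**
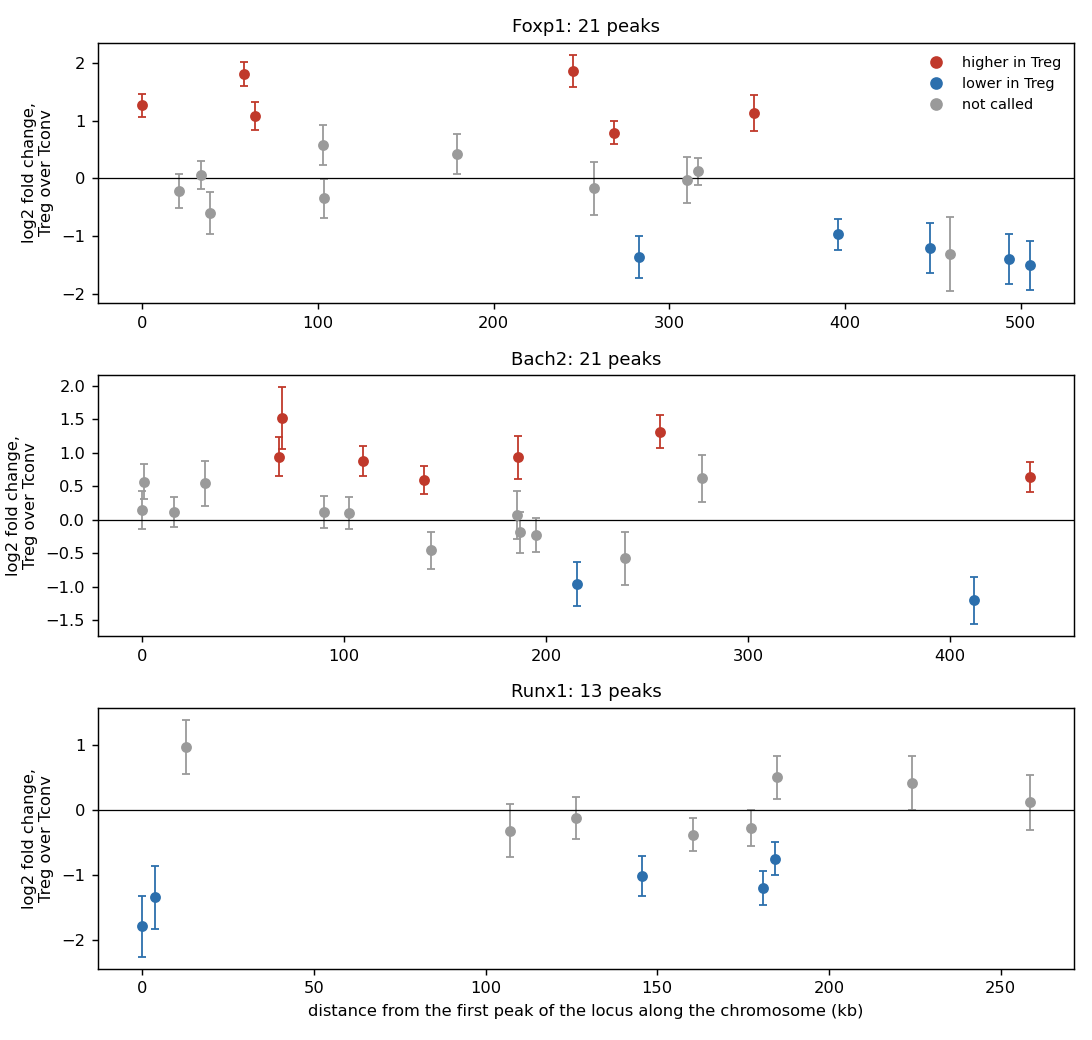
Log2 fold change of Treg over Tconv cells with its SE at each IRF4 peak assigned to Foxp1 (21), Bach2 (21) and Runx1 (13), against the distance in kb along the chromosome from the first peak of the locus. At Foxp1 the higher peaks (red) lie between 0 and 348 kb and the lower ones (blue) between 283 and 505 kb, and at Runx1 the 5 called peaks are lower.

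Other naive T cell loci gave few calls. The strongest Tcf7 peak, 30903 bp from this gene of the factor TCF-1, stood at 119, 133, 124 and 136 in Treg and 137, 142, 127 and 158 in Tconv libraries (-0.13, SE 0.19). It was called lower under quantile normalisation (adjusted p = 0.0362). None of the 4 Tcf7 peaks was called, and 1 of 8 at Lef1, the gene of its relative LEF-1, was lower (21.5 ± 8.403 in Treg and 48.5 ± 24.9 in Tconv libraries). At Cblb, a ubiquitin ligase gene that restrains T cell receptor signals, both peaks outside the gene body fell and 4 in the body rose. The peak 23813 bp away averaged 7.15 ± 4.63 in Treg and 35.7 ± 6.55 in Tconv libraries, and that 21330 bp away 5.67 ± 4.00 and 25.1 ± 6.64. Both falls and 1 of the 4 rises held without any 1 library, and each library but Tconv 4, left out, ended 1 or more of the other rises.

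The loci with the most calls were spread over other genes too. Itpr1, Tomm20 and Klf6, like Foxp1, Bach2 and Cd83 above, are the genes with the most peaks called higher. Their high counts follow from that choice, and 15.8% of all peaks were higher. Itpr1, an inositol trisphosphate receptor gene beside Bhlhe40, had 8 of 12 peaks higher, and Bhlhe40, a helix-loop-helix factor gene of effector T cells, 2 of 3. Of 9 peaks assigned to Tomm20, all 33820 bp or more from it, 8 were higher, the strongest with 232 ± 27.7 in Treg and 93.9 ± 12.0 in Tconv libraries. Klf6, a zinc finger factor gene, had 6 of 7 higher. Without any 1 library 6 of the 8 calls at Itpr1, 6 of 8 at Tomm20 and 5 of 6 at Klf6 held. The others ended without any Treg library or Tconv library 2 or 3 at Itpr1, without any library but Tconv 1 at Tomm20, and without Treg library 2 or 3 or Tconv library 4 at Klf6.

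Among loci with falls, Spef2, Ubac2, Tle4 and Prag1, like Foxp1 and Runx1 above, are the genes with the most peaks called lower. Their counts follow from that choice, and 8.39% of all peaks were lower. Spef2 had 4 of 5 peaks lower. One of these lay 37438 bp from the start of Il7r, the interleukin-7 receptor gene (12.0 ± 6.06 in Treg and 32.0 ± 11.6 in Tconv libraries), and was not called without Tconv library 4. Another lay 45114 bp from that start (14.5 ± 9.22 in Treg and 45.7 ± 3.19 in Tconv libraries). Ubac2 had 3 of 7 lower, 1 of them 22581 bp from the start of Gpr183, an oxysterol receptor gene (5.93 ± 1.15 in Treg and 23.4 ± 2.399 in Tconv libraries, log2 fold change -1.82). Tle4, a corepressor gene, had 3 of 3 lower and Prag1 3 of 5. Leaving out single libraries ended 2 of these calls each at Spef2 (Treg 1, 3 or 4 or Tconv 1, 3 or 4), Ubac2 (Treg 2 or 4 or any Tconv) and Tle4 (Treg 1, 2 or 3 or Tconv 1, 2 or 4), and 1 at Prag1 (Treg 1, 2 or 4 or Tconv 1, 2 or 3).

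No peak was called at the genes of IRF4 itself, BATF and the JUN proteins. Irf4 had 5 peaks, and the strongest, 695 bp from its start, held 21.2, 41.2, 64.1 and 61.4 in Treg and 28.3, 42.5, 37.0 and 42.3 in Tconv libraries (log2 fold change 0.22, SE 0.30). At the start of Batf the values were 39.6, 93.6, 25.6 and 63.1 in Treg and 38.0, 25.8, 50.5 and 27.4 in Tconv libraries (0.53, SE 0.32). The Junb start stood at 48.4 ± 13.2 in Treg and 39.1 ± 11.5 in Tconv libraries (0.31, SE 0.27). At all 3 the libraries of the groups overlapped, and so they did at the Cd4 peak (31.0 ± 7.13 in Treg and 32.9 ± 13.4 in Tconv libraries). At Ets1, the gene of an ETS factor, 3 peaks were called higher in Treg cells, and its uncalled peaks are not counted here. Over all peaks 15.8% were higher. The Ets1 peak with the smallest p averaged 109 ± 20.7 in Treg and 35.3 ± 6.20 in Tconv libraries (log2 fold change 1.598, SE 0.23, limma adjusted p = 2.45e-05).

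Shares over all peaks were 15.8% higher and 8.39% lower, against which the remaining lists are given. AP-1 family genes had 8 of 43 peaks higher and 2 lower, of which 7 and 2 were those of Bach2, and IRF and Ikaros family genes had 2 and 2 of 25. T cell receptor signalling genes had 12 and 7 of 84, Foxp3 partner factor genes 7 and 8 of 64, and glycolysis and nutrient uptake genes 3 and 1 of 20, the 3 being at Hif1a. T cell markers had 2 and 1 of 22, all at Bcl11b. Markers of cells that the sort should remove had few peaks: 4 for B and plasma cells (1 higher), 4 for myeloid and dendritic cells and 4 for CD8 and NK cells (0 called in each). The summed value of the B cell list was 72.5 to 104 in Treg and 59.8 to 94.9 in Tconv libraries, that of the myeloid list 83.3 to 124 and 44.2 to 89.7, and that of the CD8 and NK list 63.4 to 101 and 74.5 to 92.6. Ms4a1, Cd79b, Csf1r, Spi1, Lyz2, Cd8a, Cd8b1 and Prf1 had no IRF4 peak. The higher B cell peak, in Pax5 (33.04 ± 11.3 in Treg and 15.0 ± 10.3 in Tconv libraries), was not called when Treg library 1 or 3 or Tconv library 2 or 3 was left out. The part of other cells in these results was not tested.

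**Figure D5:**
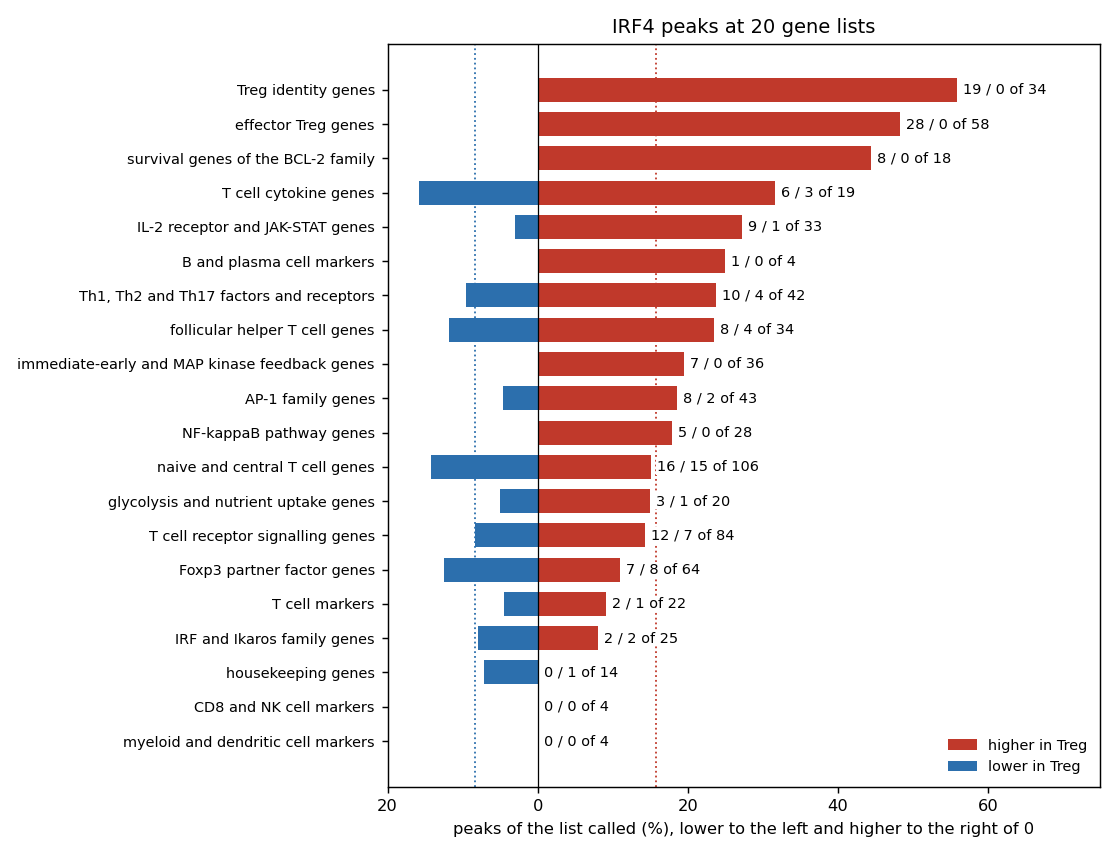
Percentage of IRF4 peaks called higher (red, right of 0) or lower (blue, left of 0) in Treg cells for 20 gene lists, with the counts of higher and lower peaks and the number of peaks beside each bar; dotted lines are the shares over all peaks (15.8% and 8.39%). Treg identity, effector Treg and BCL-2 family genes have the highest shares of higher peaks (55.9%, 48.3% and 44.4%). The lists were chosen with earlier results of these data known.

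BATF was measured in other libraries of the same cell types, 2 for each, in a table scaled on its own. Of the 945 higher IRF4 peaks on a BATF peak, 930 (98.4%) had both BATF Treg libraries above both BATF Tconv libraries, and 0 had them below, beside 38.6% and 22.9% of all 6945 IRF4 peaks on a BATF peak. BATF differed there by a median log2 ratio of 2.61. Of the 598 lower IRF4 peaks, 346 (57.9%) had BATF below and 38 above, with a median of -0.34. Position divided these falls. Away from gene starts BATF was below at 243 of 339 lower IRF4 peaks (71.7%, median -0.80). Of all IRF4 peaks on a BATF peak there, 16.0% had BATF below (median 0.46). At gene starts BATF was below at 88 of 223 lower IRF4 peaks (39.5%, median -0.15). This stands beside 32.5% of all gene-start IRF4 peaks on a BATF peak (median -0.095).

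Single peaks showed the same. At Foxp3 BATF stood at 112 in Treg and 1.74 in Tconv libraries (means of 2), at Ikzf2 at 523 and 44.7, and at Tnks at 3.81 and 70.8. At the Cfap298 start it stood at 556 in Treg and 708 in Tconv libraries, a smaller ratio than that of IRF4. Away from gene starts, IRF4 was higher in Treg cells at 1371 of 5688 peaks (24.1%), and the shares by overlap lay near that. They were 468 of 2186 on a BATF peak alone (21.4%) and 427 of 1696 on both a BATF and a Foxp3 peak (25.2%). On a Foxp3 peak alone the count was 107 of 370 (28.9%), and on neither 369 of 1436 (25.7%). Over all positions, gene starts included, these shares were 10.4%, 20.7%, 27.9% and 21.5% in the same order, beside 15.8% of all peaks. Peaks that rose without a BATF peak included those at Bcl2 and Bcl2l11, the Cish peak 317 bp away and one near Hif1a, a hypoxia factor gene (33.5 ± 3.50 in Treg and 6.81 ± 3.09 in Tconv libraries). Cish and Hif1a each also had a higher peak that lay on a BATF peak.

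Some of the strongest peaks were not called. The 3 peaks of highest value lay on unplaced contigs, the first at 2756, 3941.8, 3065.5 and 2920.2 in Treg and 2689, 2064, 3515.5 and 3059.5 in Tconv libraries, and of 66 contig peaks 1 was higher and 0 lower. A peak in Pptc7, a mitochondrial phosphatase gene, stood at 247, 301, 236 and 255 in Treg and 229, 308, 194 and 202 in Tconv libraries (log2 fold change 0.17, SE 0.21). The strongest called peak was in Enpp6, a phosphodiesterase gene, with 425, 511, 356 and 410.0 in Treg and 318, 275, 189 and 202 in Tconv libraries (0.81, SE 0.22, limma adjusted p = 0.00954), and it missed the threshold without the trend of the spread (adjusted p = 0.0644).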

How the data were processed

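IRF4 chromatin immunoprecipitation was analysed from 1 deposited table of normalised reads per peak, in a unit of signal, with 1 column for each of 4 Treg and 4 Tconv libraries. The submitters' processing notes name the build mm10 and the tools DiffBind 3.12.0, MACS2 2.2.7.1, Bowtie2 2.4.1 and edgeR 3.38.4; their roles and filters are not given in the sources used here, and input libraries were not used. All deposited values (100%) were whole multiples of 1 step per library within 0.01, so reads were recovered. The authors' scale factors lay within 1.28% of TMM factors, and a change common to most peaks would be scaled away. Peaks were 400 bp long in 99.7% of cases, and their coordinates are printed as deposited.

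The comparison used limma 3.58.1 in R 4.3.3 on log2(value + 1), with moderated variances that followed the mean value. P-values were two-sided, with Benjamini-Hochberg adjustment over 9134 peaks and a threshold of 0.05, and fold changes are on that scale, which understates changes of weak peaks. No filter was applied. The edgeR 4.0.16 quasi-likelihood test on recovered reads called 1449 higher and 807 lower, and DESeq2 1.42.0 called 1377 and 739. Of these fits only the limma fit was run on simulated data, and the outcome is not given here. Within each group, read counts of every pair of libraries differed by more than sampling noise (chi-square per degree of freedom 1.78 to 4.98).

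Gene starts came from RefSeq windows (GRCm38.p6, the assembly of mm10), which matched 4509 of the 5542 genes with a peak (81.4%). Peaks near either end of the other genes were kept apart. A position class takes the distance from the centre of a peak, an overlap with another factor's peak at least 1 bp. Named peaks are the strongest peak of genes chosen by role, the largest changes among called peaks above the 75th percentile of the mean value with groups apart, the strongest peaks overall and among those that changed little, the loci with most calls, and up to 3 peaks a list by smallest p. Members and lists were chosen with earlier results of these data known. Other peaks of these loci were named after their values were seen.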

Additional observations from a re-analysis of the deposited data

Results flagged for a closer look

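Within each group of 4 libraries, a library was picked out when its gap to the nearest other was above Dixon's 95% critical value. Among 362 groups of 4 at the named peaks there were 21 such libraries (5.80%), and chance flags about 1 in 20 groups. All values are normalised reads, and the groups are Treg and Tconv.

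At Bach2 the lowest Tconv library stood at 163 in the strongest peak (the others 325 to 340.1) and at 65.9 in the last one (122 to 133), and the highest at 36.1 in another (27.2 to 28.3). The Bcl2 peak had 1 Treg library at 96.8, with the others between 43.8 and 51.1. Near Tomm20 the highest Treg library stood at 274 (others 214 to 222) in 1 peak, and the highest Tconv library at 42.3 (10.5 to 12.5) and 75.9 (60.5 to 62.9) in others.

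High Treg libraries were also found at Lef1 (80.1, others 68.2 to 70.1), Rpl13a (20.6, others 14.5 to 15.0), Fam3c (16.03, others 5.11 to 6.34), Prag1 (12.8, others 7.37 to 7.93, and 6.34, others 2.14 to 2.77) and a peak on an unplaced contig (474, others 384 to 397.5). Low ones were found at Nfkbiz (47.0, others 71.6 to 75.9), Tle4 (2.77, others 10.7 to 11.9) and Runx1 (4.26, others 6.34 to 6.45). High Tconv libraries were found at Maf (40.4, others 28.5 to 29.8), Asap1 (20.6, others 9.69 to 10.4), Fam3c (16.000, others 6.27 to 7.22) and Hif1a (11.4, others 4.85 to 5.57), and a low one at Tle4 (25.1, others 33.9 to 34.3).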

How the results depend on the processing

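The main test called 1442 higher and 766 lower peaks. The counts were 1244 and 621 without the trend of the spread, 1523 and 844 with a pseudocount of 4, 1311 and 888 after quantile normalisation, 1047 and 552 among peaks above the 25th percentile, 1449 and 807 with edgeR, and 1377 and 739 with DESeq2. Without 1 library they ranged from 1114 to 1450 and from 528 to 688. Of the 1442 higher peaks between 1039 and 1441 were shared with each of these fits. Among 181 named peaks, 147 were called, 102 of them under all 15 alternatives. Quantile normalisation moved the median of all peaks from -0.05 to -0.11.

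With replicate number as a block, 1569 peaks were higher and 856 lower. The block also called the strongest Rora peak higher (adjusted p = 0.0298) and ended the call of 1 lower Foxp1 peak. Deviations of same-numbered libraries correlated at 0.13, 0.03, 0.06 and 0.05, and 6 of 8 libraries correlated best with their own number. Since not every correlation passed 0.1, the numbers were not taken to pair the samples.

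The sign changed only at peaks that were not called, and the cause was not tested. After quantile normalisation the log2 fold change was -0.20 at the strongest Bach2 peak, -0.033 at the strongest Il2ra peak and -0.18 at Pptc7. Without 1 library it ranged from -0.15 to 0.20 at Bach2, from -0.068 to 0.26 at Il2ra, from -0.32 to 0.18 at Cd4, from -0.38 to 0.15 at Cd79a, from -0.33 to 0.039 at Icos, from -0.14 to 0.33 at Ikzf4 and from -0.012 to 0.62 at Itgam. On the contigs it ranged from -0.082 to 0.17 and from -0.067 to 0.28. Depth limits weak peaks most, since 1 read was worth 0.696 to 1.59 normalised reads.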
